A study of Mus musculus with 8 samples.

Results

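The genes described here encode receptors that bind the constant part of immunoglobulin G (IgG) and a signalling chain that some of them share. They are Fcgr1, Fcgr3 and Fcgr4, which activate the cell, Fcgr2b, which inhibits it, Fcer1g, the common gamma chain through which the activating receptors signal, and Fcgrt, the neonatal Fc receptor. All probes annotated with 1 of these 6 gene symbols were taken, which gave 8 of the 25697 probes and 6 of the 16593 gene symbols of the array: 3 probes of Fcgr2b and 1 of each other gene. RNA came from whole brainstem of 4 late-stage (over P68) Vglut2:Ndufs4cKO mice and 4 Vglut2:Ndufs4cCT littermate controls, and each mouse was measured on 1 Illumina MouseRef-8 v2 array. Both groups had the C57BL/6J background and carried Cre recombinase driven by the Slc17a6 (Vglut2) promoter of a BAC transgene. The Vglut2:Ndufs4cKO mice had 1 deleted and 1 floxed allele of Ndufs4, a subunit of mitochondrial complex I, so that cells with Cre lost the gene and every other cell kept 1 floxed allele beside the deleted one. The Vglut2:Ndufs4cCT mice had 1 floxed and 1 wild-type allele. The age and sex of the control mice used for the arrays were not given separately in the sources used here.

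Fc gamma receptors let phagocytes recognize antibody bound to a target. The activating receptors assemble with the gamma chain, whose immunoreceptor tyrosine-based activation motif (ITAM) is phosphorylated by Src family kinases and recruits the kinase Syk, while Fcgr2b has an inhibitory motif (ITIM) in its own tail that recruits phosphatases. In the brain these receptors are known mainly from microglia and from macrophages at the borders of the tissue. The neonatal receptor is built differently: it resembles an MHC class I molecule, pairs with beta-2-microglobulin, and carries IgG and albumin through cells, including endothelial cells.

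Ndufs4 itself was measured first. The signal of its probe ILMN_1234521 lay between 12.31 and 13.35 on the log2 scale in the Vglut2:Ndufs4cCT mice and between 11.19 and 11.72 in the Vglut2:Ndufs4cKO mice (log2 fold change -1.41, adjusted p = 0.0228 from limma), while 3 other Ndufs4 probes did not pass, and the place of each probe relative to the deleted exon is not known here. Between 14293 and 15042 probes were detected per array and the median number of beads behind a probe was 34 to 37. On the beadchip the controls took positions A to D and the Vglut2:Ndufs4cKO mice E to H, and place and genotype cannot be told apart. Of 12 neuron and brainstem markers on the array, 10 had a probe that could be tested, among them Slc17a6, Tph2, Chat and Hoxb2 on all 8 arrays, while the probes of Snap25 and Gad2 were detected on none, so an undetected probe is not read here as an absent transcript.

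Most Fc gamma receptor probes were higher in the Vglut2:Ndufs4cKO brainstem, and the inhibitory receptor Fcgr2b had the highest fold change among them. Of the 8 probes, 7 were bright enough to be tested (detection p under 0.05 on at least 3 arrays), and 4 of these 7 passed at an adjusted p under 0.05 from limma, all upward: both tested Fcgr2b probes, Fcgr3 and Fcgr4. Of these 4, Fcgr4 and 1 Fcgr2b probe (ILMN_3102376) were detected on 1 control array each. They met the detection limit only through the Vglut2:Ndufs4cKO arrays, where they were high. The share of tested probes that passed is therefore a description and not support. The same holds for the other counts and the median over the 7 tested probes given below. With no detection limit, and all 8 probes in the fit, the number called was also 4. Over the whole array 0.670% of the 15225 tested probes were called higher and 0.0328% lower. Probes of 5 genes, all except Fcgrt, had every Vglut2:Ndufs4cKO value above every Vglut2:Ndufs4cCT value (6 of the 7 tested probes), which held for 4.01% of all tested probes, and 0 had the opposite order, which 1.79% of all tested probes had. The same 6 probes had an unadjusted p under 0.05 and a higher mean, as did 6.86% of all tested probes, against 3.02% with a lower mean. The median log2 fold change was 1.23 over the 7 tested probes of these genes and 0.0091 over all tested probes. Fcgr2b and Fcgr3 are labelled in the study's own plot of changes in these samples, so their direction is not independent evidence. Values are log2 signals after background correction and scaling of each array to the same mean, with 16 added before the log, and a difference on this scale understates the fold change of dim probes. In whole tissue, more cells of a type and more RNA per cell cannot be told apart.

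**Figure D1:**
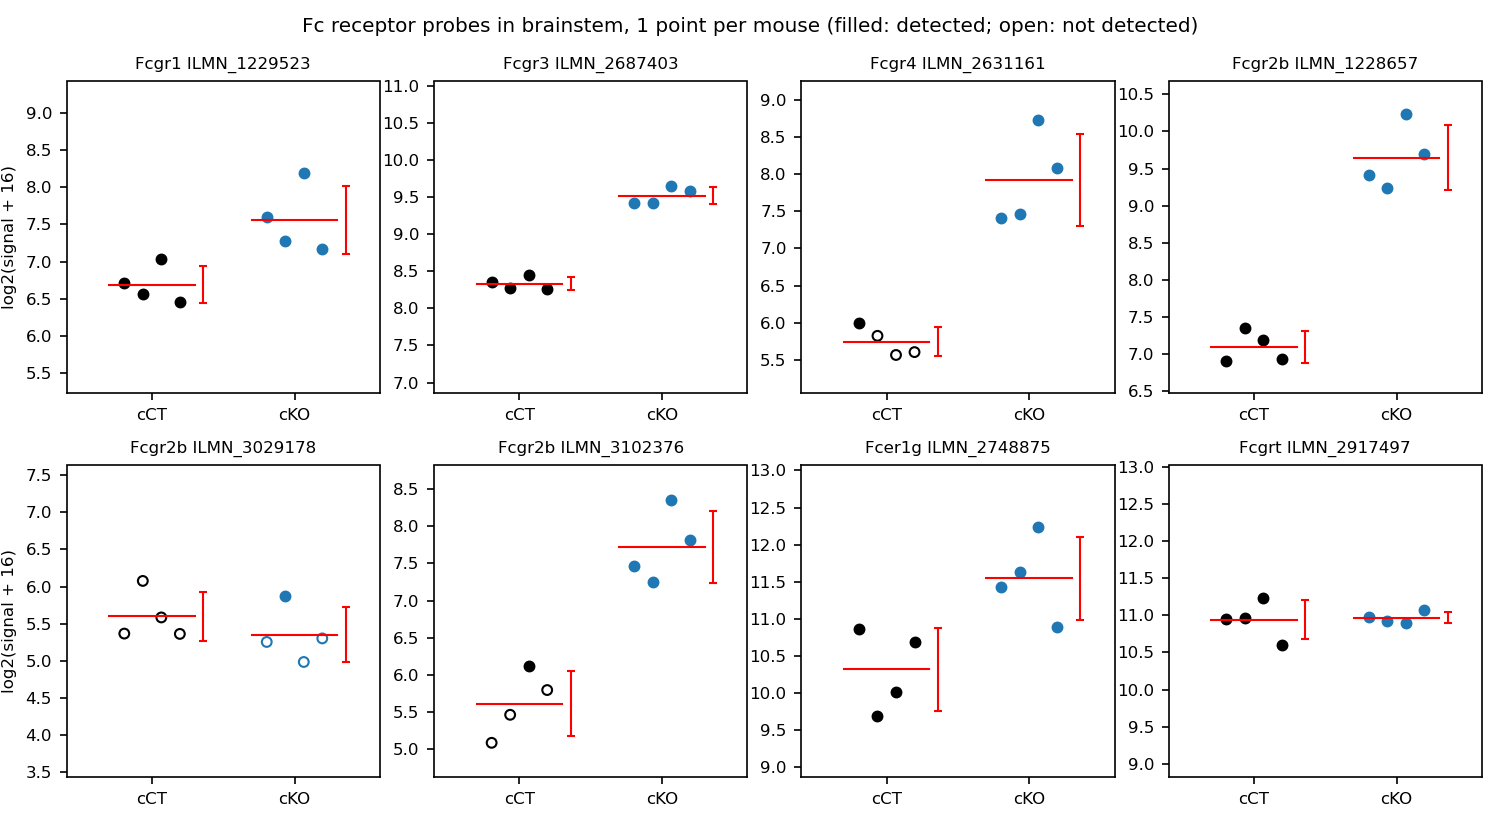
Signal of each of the 8 Fc receptor probes, as log2(signal + 16) on the vertical axis, with 1 point per mouse in the Vglut2:Ndufs4cCT (cCT, black) and Vglut2:Ndufs4cKO (cKO, blue) groups. Filled points were detected at p under 0.05 and open points were not, red lines and bars are the group mean and SD (n = 4), and every axis spans the same number of log2 units. All probes except ILMN_3029178 of Fcgr2b and that of Fcgrt separate the groups.

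The promoters of the receptors with the clearest changes, and of Fcgr1, are shown because RefSeq places Fcgr2b, Fcgr4 and Fcgr3 next to each other on chromosome 1, with Fcer1g close by, while Fcgr1 lies on chromosome 3 and Fcgrt on chromosome 7. Each stretch runs from 250 bases before to 50 bases after the annotated start of the gene (RefSeq, GRCm38.p6), and capitals mark GAGGAA on either strand, which appears as TTCCTC where it lies on the opposite strand. GAGGAA is the core of the PU box, the element bound by the myeloid transcription factor PU.1.
Fcgr2b (chr1:170976022-170976321, - strand): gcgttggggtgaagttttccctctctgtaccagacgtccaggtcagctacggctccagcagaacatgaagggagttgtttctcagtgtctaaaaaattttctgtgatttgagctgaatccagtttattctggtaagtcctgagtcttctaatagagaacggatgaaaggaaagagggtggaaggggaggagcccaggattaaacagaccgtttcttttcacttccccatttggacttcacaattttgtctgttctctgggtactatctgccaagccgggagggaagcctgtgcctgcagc
Fcgr4 (chr1:171018676-171018975, + strand): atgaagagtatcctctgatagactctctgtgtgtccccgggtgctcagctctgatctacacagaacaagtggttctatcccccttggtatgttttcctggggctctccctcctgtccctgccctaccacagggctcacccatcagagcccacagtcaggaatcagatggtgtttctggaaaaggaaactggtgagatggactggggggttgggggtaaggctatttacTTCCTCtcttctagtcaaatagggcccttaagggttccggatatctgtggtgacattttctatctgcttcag
Fcgr3 (chr1:171059354-171059653, - strand): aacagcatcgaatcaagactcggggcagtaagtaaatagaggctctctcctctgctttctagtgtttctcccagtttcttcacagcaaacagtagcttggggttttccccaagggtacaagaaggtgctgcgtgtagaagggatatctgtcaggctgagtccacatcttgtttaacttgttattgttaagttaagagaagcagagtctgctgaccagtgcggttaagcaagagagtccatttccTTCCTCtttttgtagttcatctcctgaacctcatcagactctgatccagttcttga
Fcgr1 (chr3:96293920-96294219, - strand): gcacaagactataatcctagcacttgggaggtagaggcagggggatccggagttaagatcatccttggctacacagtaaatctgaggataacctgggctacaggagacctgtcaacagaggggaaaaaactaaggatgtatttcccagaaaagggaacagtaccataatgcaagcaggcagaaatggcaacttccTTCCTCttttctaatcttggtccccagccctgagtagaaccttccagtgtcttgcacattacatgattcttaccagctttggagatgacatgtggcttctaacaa
GAGGAA was present in the promoters of Fcgr4 (22 to 17 bases before the start), Fcgr3 (6 to 1 bases before the start shown, or 15 to 10 before the other start that RefSeq gives) and Fcgr1 (55 to 50 bases before the start). It was absent from those of Fcgr2b, Fcer1g and Fcgrt, and 28.3% of the 32851 promoters of the same length held it. A second motif, the gamma-activated site TTCNNNGAA, was found only in Fcgr1, from 109 to 101 bases before the start, and in 8.3% of all promoters. These are matches of letters and not shown to be binding sites.

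Fcgr2b, the inhibitory receptor, was higher in every Vglut2:Ndufs4cKO mouse with the brighter of its tested probes, ILMN_1228657. On the log2 scale the 4 controls, in replicate order, had signals of 6.91, 7.35, 7.20 and 6.94, and the 4 Vglut2:Ndufs4cKO mice 9.41, 9.24, 10.24 and 9.70. The groups lay 1.89 apart at their nearest values, with replicate 3 the highest of the Vglut2:Ndufs4cKO mice. Means of 7.10 ± 0.21 and 9.65 ± 0.44 (SD, n = 4 in each group) differed by 2.55 (standard error 0.22), a 5.86-fold higher signal (95% interval 4.18 to 8.22) with an adjusted p of 0.00159 from limma. Only 4 of the 15225 tested probes had a smaller p than this probe, which ranked 5, and only 6 had a larger fold change, where it ranked 7. The fold change depends on the background correction: with none it was 1.58 on the log2 scale.

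The other probes of Fcgr2b did not read alike. ILMN_3102376 was detected on 1 of 4 Vglut2:Ndufs4cCT arrays and on all 4 Vglut2:Ndufs4cKO arrays, with log2 signals of 5.09, 5.46, 6.11 and 5.80 against 7.47, 7.25, 8.35 and 7.81 in replicates 1 to 4. It again separated the groups, and the means differed by 2.11 on the log2 scale with a standard error of 0.28 (adjusted p = 0.0140, limma), or by 0.76 without background correction and 2.56 with an offset of 1. With 3 of the 4 controls not above background, the size of this difference is not well determined, and the probe is no independent second measurement of the change. With both groups pooled, its values moved with those of ILMN_1228657 about the group means (Pearson r = 0.75 over 8 arrays, as a description). Among the controls alone ILMN_3102376 was highest in replicate 3 and ILMN_1228657 in replicate 2. The third probe, ILMN_3029178, was detected on 0 of 4 and 1 of 4 arrays and was not tested. Its log2 signals were 5.37, 6.08, 5.58 and 5.36 in the Vglut2:Ndufs4cCT mice and 5.25, 5.87, 4.98 and 5.30 in the Vglut2:Ndufs4cKO mice, close to background in both groups. ILMN_3029178 and ILMN_3102376 are annotated to the same transcript accession, so the annotation does not separate a probe that rose from a probe that stayed near background. The sequences of the probes were not among the files used here, and their positions within the transcript are not described.

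Among the activating receptors, Fcgr3 had the tightest values. In replicate order, log2 signals were 8.35, 8.27, 8.45 and 8.26 in the controls and 9.42, 9.42, 9.65 and 9.58 in the Vglut2:Ndufs4cKO mice. The groups were 0.97 apart at their nearest values and neither spanned more than 0.23. With means of 8.33 ± 0.085 and 9.52 ± 0.11 (SD, n = 4 per group), the difference was 1.18 with a standard error of 0.11 (adjusted p = 0.00256, limma), or 2.27-fold (95% interval 1.91 to 2.71), and 0.83 on the log2 scale without background correction. Fcgr3 is a low-affinity receptor for immune complexes, carried by microglia, macrophages, neutrophils and NK cells.

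Fcgr4, a receptor of monocytes, macrophages and neutrophils in the mouse, was near background in the controls. Its probe was detected on 1 of 4 Vglut2:Ndufs4cCT arrays and on 4 of 4 Vglut2:Ndufs4cKO arrays. The log2 signals were 5.99, 5.82, 5.57 and 5.60 in the controls and 7.42, 7.47, 8.73 and 8.08 in the Vglut2:Ndufs4cKO mice, and the groups were 1.42 apart, with replicate 3 again the highest. The means were 5.75 ± 0.20 and 7.92 ± 0.62 (SD, n = 4 per group), and their difference of 2.18 had a standard error of 0.28 (adjusted p = 0.0120, limma). With 3 of the 4 controls not above background the size of this difference is not well determined, and it ran from 0.83 without background correction to 2.56 with an offset of 1. The call was narrowly lost without Vglut2:Ndufs4cCT replicate 3 (log2 fold change 2.12, adjusted p = 0.0508 from limma).

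Fcgr1, the high-affinity receptor for IgG, had higher values in all Vglut2:Ndufs4cKO mice but did not pass the test. Its log2 signal was 6.71, 6.56, 7.04 and 6.46 in the controls and 7.60, 7.28, 8.19 and 7.17 in the Vglut2:Ndufs4cKO mice. The groups did not overlap, but only 0.14 separated the highest control from the lowest Vglut2:Ndufs4cKO value. The log2 fold change was 0.87 (standard error 0.23, 95% interval 0.35 to 1.39, adjusted p = 0.177 and unadjusted p = 0.00397 from limma), and 0.35 without background correction. A two-sided exact permutation test of the same difference gave p = 0.0286, the smallest that 4 arrays against 4 allow, as it did for every probe whose groups did not overlap.

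Fcer1g, the gamma chain that the activating receptors need to reach the surface and signal, spread widely between mice of the same genotype. Replicates 1 to 4 read 10.87, 9.70, 10.02 and 10.70 on the log2 scale among the controls and 11.43, 11.63, 12.23 and 10.89 among the Vglut2:Ndufs4cKO mice. Replicate 4 of the Vglut2:Ndufs4cKO mice lay only 0.019 above replicate 1 of the controls. The means were 10.32 ± 0.55 and 11.55 ± 0.56 (SD, n = 4 per group), so the log2 fold change of 1.23 was about that of Fcgr3 but with a larger standard error (0.33, 95% interval 0.49 to 1.96), and the probe did not pass (adjusted p = 0.184 and unadjusted p = 0.00431 from limma). The error of the mean over beads was smaller than the spread between mice. The standard error over the 35 to 46 beads of this probe was between 3.07% and 4.42% of its signal. Between mice the raw signal varied with a coefficient of variation of 37.8% and 40.1% in the groups.

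The values of Fcer1g moved with an index made from the probes of other genes. Genes with more than 1 bright probe (log2 signal of 9 or more) gave an index for each array, namely the leading principal component of how a gene's own probes differed, over 2612 probes of 1168 genes, which held 59.0% of their variance. Fcer1g has 1 probe and did not enter it. The index ran from -0.32 to -0.03 in the Vglut2:Ndufs4cCT arrays and from -0.43 to 0.73 in the Vglut2:Ndufs4cKO arrays. About the group means, Fcer1g correlated with it at r = 0.84 over 8 arrays, against 0.07 for Fcgr3, 0.26 for Fcgr2b (ILMN_1228657), 0.13 for Fcgr2b (ILMN_3102376), 0.40 for Fcgr4, 0.59 for Fcgr1 and -0.43 for Fcgrt, values given as a description. With the index as a covariate, the log2 fold change of Fcer1g was 0.79 (standard error 0.23, adjusted p = 0.290 from limma) and those of Fcgr2b, Fcgr3 and Fcgr4 were 2.47, 1.18 and 2.01 (adjusted p = 0.00859, 0.00940 and 0.0342). Fcgr1 moved from 0.87 to 0.67 (adjusted p = 0.400), ILMN_3102376 of Fcgr2b to 2.05 (adjusted p = 0.0397) and Fcgrt to 0.11 (adjusted p = 0.898). What the index measures was not tested.

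**Figure D2:**
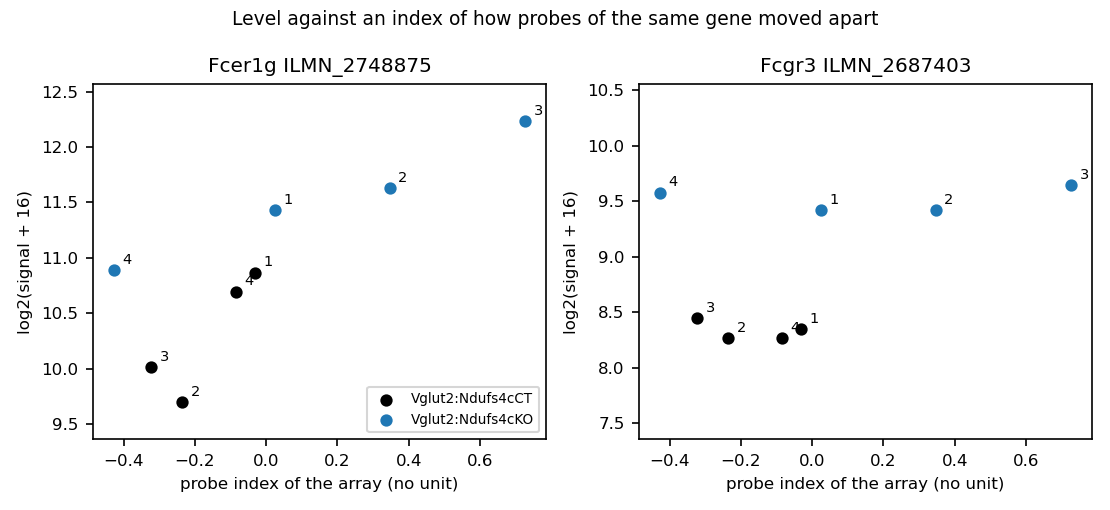
Log2(signal + 16) of Fcer1g (left) and Fcgr3 (right) against the index of differences between a gene's own probes on each array (no unit), with 1 numbered point per mouse, black for Vglut2:Ndufs4cCT and blue for Vglut2:Ndufs4cKO. Fcer1g climbs with the index from 10.89 to 12.23 in the Vglut2:Ndufs4cKO mice, while Fcgr3 stays between 9.42 and 9.65 in them.

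Fcgrt, the neonatal receptor, was the 1 gene of the 6 whose groups overlapped. Its log2 signal was 10.95, 10.97, 11.24 and 10.59 in the controls and 10.97, 10.93, 10.90 and 11.06 in the Vglut2:Ndufs4cKO mice. The controls spanned 0.64 and held both the highest and the lowest value. The log2 fold change was 0.03 (standard error 0.15, adjusted p = 0.969 from limma), and its 95% interval of -0.30 to 0.36 leaves room for a change of up to 1.28-fold. Its partner B2m, the light chain it shares with MHC class I, differed by 0.82 on the log2 scale with a standard error of 0.27 and did not pass (adjusted p = 0.340, limma).

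**Figure D3:**
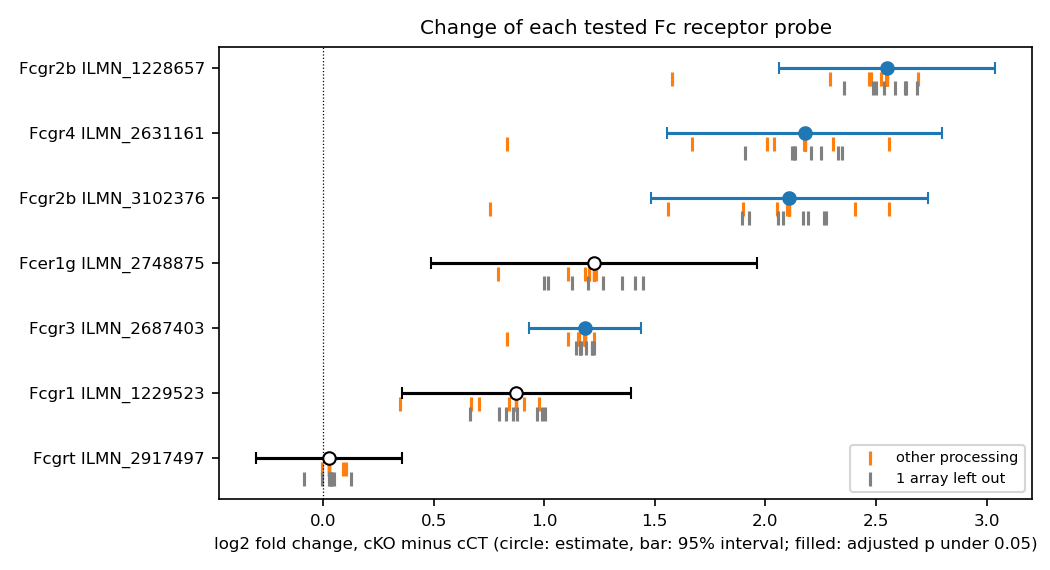
Log2 fold change of each tested probe, Vglut2:Ndufs4cKO minus Vglut2:Ndufs4cCT, on the horizontal axis, with circles for the estimate, bars for the 95% interval from limma and filled circles for an adjusted p under 0.05. Orange ticks are the values under other processing and grey ticks those with 1 array left out, and the intervals of the 4 called probes start at 0.93 or above while that of Fcgrt spans 0. Without background correction the value of each of the 4 called probes lies below its interval.

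The log2 fold changes ranged from 0.03 for Fcgrt to 2.55 for Fcgr2b, and the differences between genes were compared pair by pair. For every pair of the 6 genes the difference in log2 signal on each array was compared between the genotypes, with a two-sided exact permutation test over 70 arrangements and Benjamini-Hochberg adjustment over 15 pairs. In 8 pairs the groups did not overlap and p was 0.0286, the smallest possible, but after adjustment these stood at 0.0536 and 0 pairs passed, against 9 with quantile normalization 10 with an offset of 1 and 9 without Vglut2:Ndufs4cKO replicate 3. At this number of arrays at least 9 pairs would have to reach the smallest p for any to pass, so the count of 0 says nothing about whether the genes differed. The log2 fold change of Fcgr2b was above that of Fcgr3 by 1.37 (standard error 0.20) and above that of Fcgr1 by 1.68 (standard error 0.21), and that of Fcgr4 was above them by 0.99 (standard error 0.28) and 1.30 (standard error 0.29). Without background correction Fcgr4 and Fcgr3 both had a log2 fold change of 0.83, Fcgr1 0.35 and Fcgr2b 1.58. The first of the Fcgr4 differences was then not seen and the other named differences were smaller, so the size of each depends on the correction. In other pairs the groups overlapped, among them Fcgr2b against Fcgr4 (difference 0.37, standard error 0.19, p = 0.143 and adjusted p = 0.179 from the exact permutation test), and Fcer1g against Fcgr3 (difference 0.04, standard error 0.39, p = 0.914 from the same exact test). Each comparison is between probes, which can differ in how steeply their signal follows the RNA. The mouse Fcgr2b, Fcgr3 and Fcgr4 genes are close relatives, and whether their probes take up each other's transcripts was not tested.

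About the group means, with both groups pooled, the Fc gamma receptors also moved with each other, though not in every pair within each genotype. In the controls alone Fcgr4 was highest in replicate 1 (log2 signal 5.99) and lowest in replicate 3 (5.57). ILMN_3102376 of Fcgr2b ran the other way in the same mice (5.09 and 6.11), and both probes were near background in the controls. Over the 10 pairs of the 5 tested probes of Fcgr1, Fcgr3, Fcgr4 and Fcgr2b, Pearson r about the group means was between 0.48 and 0.81 over 8 arrays, highest between Fcgr2b (ILMN_1228657) and Fcgr4. With Fcer1g the same probes had r between 0.01 and 0.45, and with Fcgrt 0.26 (Fcgr1), 0.48 (Fcgr3), -0.05 (Fcgr4), 0.17 (Fcgr2b, ILMN_1228657) and 0.11 (Fcgr2b, ILMN_3102376). These points share arrays and are given as a description. Replicate 3 had the highest value of the Vglut2:Ndufs4cKO mice for all 6 tested probes other than that of Fcgrt.

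The genes whose pattern over the 8 arrays was most like that of each receptor included several known from myeloid cells. For Fcgr2b they were Fcrls, an Fc receptor-like gene of microglia (r = 0.99, and 0.94 about the group means), Myo1f, a myosin of leukocytes (0.99 and 0.78), and Clec7a, the receptor Dectin-1 (0.99 and 0.74). For Fcgr4 they were Csrnp1, Lpl, the lipoprotein lipase, and Fcrls (r = 0.99 each, and 0.92, 0.92 and 0.88 about the group means). Fcgr3 was followed by Plcg2, a phospholipase downstream of ITAM receptors (0.99 and 0.90), Myo1f (0.99 and 0.70) and Cd14 (0.98 and 0.35). Fcgr1 was followed by the inflammatory caspase gene Casp4 (0.985 and 0.966), Pid1 (0.97 and 0.93) and Tgif1 (0.97 and 0.93). For Fcer1g they were Cyba, a subunit of the phagocyte NADPH oxidase (0.99 and 0.98), AA467197 (0.98 and 0.99) and Adap2 (0.97 and 0.93), and for Fcgrt Parp1, Polg2 and Wnt10a (0.92, 0.91 and 0.90). Each is the highest of r over 10427 genes with 8 points and carries no p, and the difference between genotypes enters all of them.

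Of the genes through which ITAM receptors signal, 13 of 19 on the array could be tested, 3 were higher, 0 were lower (10 higher, 0 lower by an unadjusted p under 0.05, limma) and 10 did not pass. Over all genes, by their brightest probe, 0.777% were called higher and 0.0288% lower, and with an unadjusted p under 0.05 these shares were 7.19% and 3.02%. The median log2 fold change of the 13 genes was 0.87, against 0.02 over all genes. Vav1, a signalling protein of blood cells, rose by 0.93 on the log2 scale (standard error 0.12, adjusted p = 0.0120 from limma), the adaptor Lat2 by 0.96 (standard error 0.15, adjusted p = 0.0228) and the adaptor Blnk, detected on 1 control array, by 0.87 (standard error 0.15, adjusted p = 0.0400). Btk, Was, Tyrobp and Plcg2 had log2 fold changes of 0.87, 1.08, 1.20 and 0.43 and did not pass (adjusted p = 0.0612, 0.0610, 0.0667 and 0.147). The probes of Syk, Fgr, Lcp2, Pik3ap1 and Gab2 were detected on no array. Over the 4 pathway lists of signalling partners, other receptors and ligands 5 genes were called, and 1 without Vglut2:Ndufs4cCT replicate 3 or 4, 2 without Vglut2:Ndufs4cKO replicate 1 or 3, 3 without any 1 of Vglut2:Ndufs4cCT replicates 1 and 2 and Vglut2:Ndufs4cKO replicate 2. With Vglut2:Ndufs4cKO replicate 4 left out there were 8.

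Of the genes listed for ITIM and inhibitory signalling, 10 of 14 could be tested, with a median log2 fold change of 0.33. Of these 1 was higher, 0 were lower (3 higher, 0 lower by an unadjusted p under 0.05, limma) and 9 did not pass. The list also held the receptor Siglech, which is counted again among the microglia markers, and whether each listed gene inhibits was not tested. The gene that rose was Ptpn6, which encodes the phosphatase SHP-1, by 0.96 on the log2 scale (standard error 0.16, adjusted p = 0.0336, limma). Ptpn6 and Tyrobp are labelled in the same plot of the study and are not independent evidence. Inpp5d, the phosphatase SHIP-1 that Fcgr2b recruits, had 0.73 (standard error 0.32, adjusted p = 0.509), and Lilrb4, an inhibitory receptor, was detected on no control array and did not pass (adjusted p = 0.0815). Of the other Fc and Fc-like receptors, 6 of 17 could be tested and 1, Fcrls, was higher, from 8.85 to 10.19 on average on the log2 scale (log2 fold change 1.33, standard error 0.18, adjusted p = 0.0153), while 0 were lower (2 higher, 0 lower by an unadjusted p under 0.05, limma) and the median was 0.14. Trim21, the cytosolic Fc receptor, had 0.50 (adjusted p = 0.320). Fcer1a and Ms4a2, the IgE-binding and beta chains of the mast cell receptor that shares the gamma chain, were detected on no array. Immunoglobulin genes were not analysed here because no probe carried the listed symbols, and the joining chain gene Jchain was detected on no array.

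**Figure D4:**
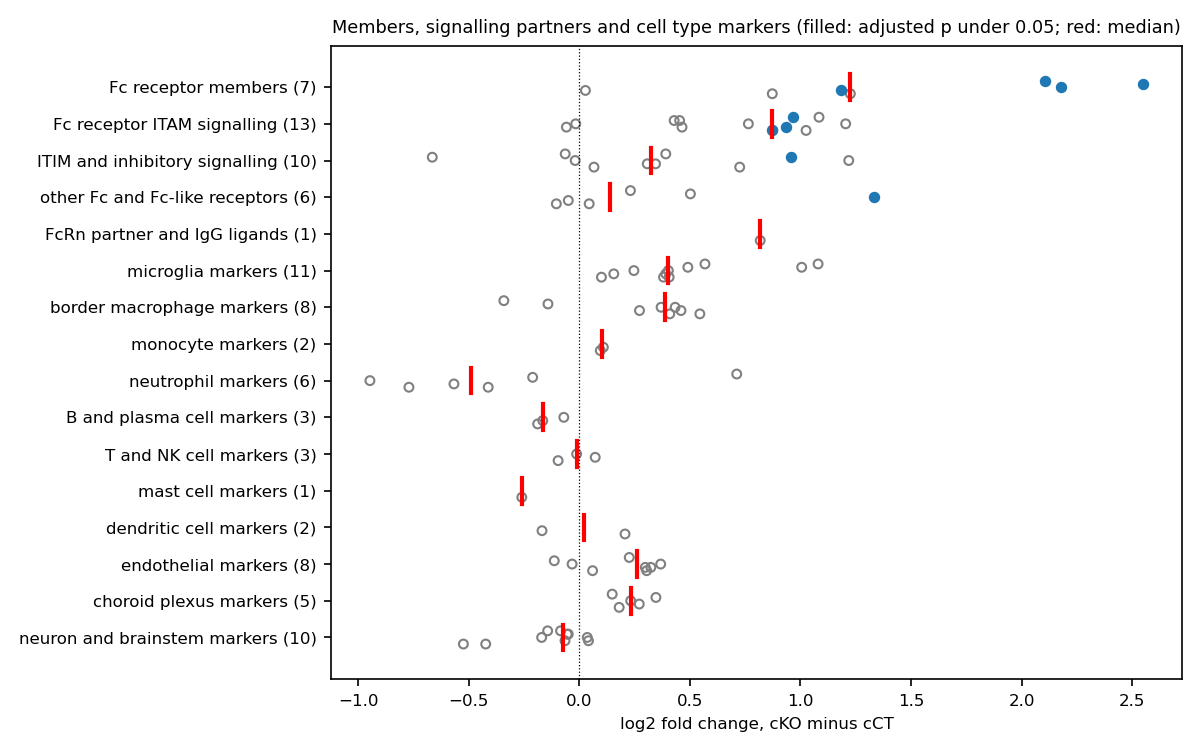
Log2 fold change, Vglut2:Ndufs4cKO minus Vglut2:Ndufs4cCT, of the tested Fc receptor probes and of the tested genes of each pathway and cell type list, with 1 point per probe or gene, the number of points in parentheses, filled points at an adjusted p under 0.05 and the median as a red line. The medians of the Fc receptors (1.23) and of ITAM signalling (0.87) lie above those of microglia markers (0.40) and of the other cell types. The Fc receptor row holds Fcgr4 and ILMN_3102376 of Fcgr2b, which met the detection limit only through the Vglut2:Ndufs4cKO arrays.

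Markers of microglia had higher means in the Vglut2:Ndufs4cKO mice, without passing the test. Of 12 on the array, 11 were tested and all 11 had a higher mean in the Vglut2:Ndufs4cKO mice, with 0 passing. Their median log2 fold change was 0.40, against 0.02 over all genes. By an unadjusted p under 0.05 from limma 6 were higher and 0 lower, against 7.19% and 3.02% of all genes. Their summed signal was 29915 to 35667 in the controls and 40475 to 57060 in the Vglut2:Ndufs4cKO mice, again highest in replicate 3. Most of this sum came from Sparc, by far the brightest of the 11, with mean log2 signals of 14.63 and 15.20 in the controls and Vglut2:Ndufs4cKO mice. Those of Cx3cr1 were 10.66 and 11.66. The sum is therefore mainly a reading of Sparc (log2 fold change 0.57, adjusted p = 0.144 from limma) and is not read here as an amount of microglia. Tmem119 and P2ry12, which define resting microglia, had log2 fold changes of 0.38 and 0.16 (adjusted p = 0.451 and 0.834), and Cx3cr1 and Aif1 had 1.01 and 1.08 (adjusted p = 0.0815 and 0.379). Markers of border macrophages had a median of 0.39 (8 tested, 0 passing, 1 higher, 0 lower by an unadjusted p under 0.05, limma), and their summed signal of 818 to 1417 and 1255 to 1743 overlapped between the groups. Their part in the change of the receptors was not tested.

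No marker of the other cells that can carry Fc receptors passed in either direction. The monocyte marker Ccr2 was detected on no array, and 2 tested monocyte markers had a median of 0.10. Of 6 tested neutrophil markers 5 had lower means in the Vglut2:Ndufs4cKO mice, with a median of -0.49, 0 passing (1 higher, 1 lower by an unadjusted p under 0.05, limma) and summed signals of 1063 to 2365 and 1024 to 1792, and the exception was Csf3r (0.71, adjusted p = 0.167). Of 9 B and plasma cell markers on the array 5, among them Ms4a1, Cd79a and Pax5, were detected nowhere. The 3 tested, Mzb1, Sdc1 and Xbp1, had a median of -0.17. Of 5 mast cell markers on the array 3 (Cpa3, Mcpt4 and Tpsb2) were detected nowhere. The 1 tested, Hdc, was detected on all 8 arrays and had -0.26 (adjusted p = 0.809, limma). Of 7 dendritic cell markers on the array 5 were detected nowhere, and the 2 tested had a median of 0.02. Of 12 T and NK cell markers on the array 7 were detected nowhere, and the 3 tested had a median of -0.01. The 8 tested endothelial markers, from cells in which the neonatal receptor is also found, had a median of 0.26, with 0 passing and 0 at an unadjusted p under 0.05 from limma. The 5 choroid plexus markers, from another site of this receptor, had a median of 0.23 and 0 passed, and their summed signal ran from 2298 to 10324 in the controls and from 3093 to 41973 in the Vglut2:Ndufs4cKO mice.

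No tested gene next to the receptors on chromosome 1 passed. Among the 7 protein-coding genes between the receptors and the 10 on either side of the cluster, 12 of 27 neighbours were tested and 0 passed (0 at an unadjusted p under 0.05, limma). Their log2 fold changes ran from -0.27 to 0.26 with a median of -0.0082. The tested genes between Fcgr3 and Fcer1g were Sdhc, a subunit of respiratory complex II (-0.09, standard error 0.13, adjusted p = 0.868 from limma), and Apoa2 (-0.16, standard error 0.27, adjusted p = 0.881). These neighbours were chosen by place after the receptors' values had been seen.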

How the data were processed

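Whole brainstem RNA of 8 mice was labelled with biotin and hybridized to 1 beadchip, 1 array per mouse. The authors deposited the signal intensity of each probe before normalization, with its detection p-value, bead number and bead standard error, and a second table of intensity to which GenomeStudio (version not given in the sources used here) had applied background subtraction and average normalization. The unnormalized intensities were used here. In R 4.3.3, limma 3.58.1 removed background (normexp, inferred from detection p-values), each array was scaled to equal mean signal, 16 was added and log2 taken. Probes with detection p under 0.05 on at least 3 arrays (15225) entered 1 limma fit of the 2 groups, with p-values adjusted by the Benjamini-Hochberg method. The study's custom error model was not repeated. The platform annotation gave 1 symbol for 23978 probes and none for 1719, and genes are represented by their brightest tested probe. The text names every probe of the 6 genes, list genes that passed (otherwise up to 3 with the smallest p) and the 3 genes most alike in pattern to each receptor, with further list genes chosen after their values were seen. The lists hold 184 entries, of which 152 were on the array. Promoters came from RefSeq (GRCm38.p6). The receptors and lists were chosen with earlier results of these data known. Replicates are separate mice by the methods, and their number limits the precision. Alternatives were offsets of 1 and 50, quantile normalization, omission of the background step, use of the authors' normalized table, other filters, a variance trend, array weights, a block for the replicate number, and leaving out each array.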

Additional observations from a re-analysis of the deposited data

How the results depend on the processing

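Under 19 alternatives the number of Fc receptor probes called higher was 4 in the analysis reported and stayed within 1.5 times of it, except with the replicate number as a block (2, both of Fcgr2b, with Fcgr3 and Fcgr4 at adjusted p = 0.0552 and 0.0812 from limma), and was 3 to 4 with 1 array left out. The labels do not say whether same-numbered mice share more than a number. Their deviations from the group means correlated at -0.26 to -0.19, and 0 of 4 controls correlated best with its own number. These values cannot show whether such mice shared a litter or a step of handling, which was not tested. The block changed the calls of all probes from 102 higher and 5 lower to 11 and 0. The number of pathway genes called higher was 5, against 8 with array weights, 0 with the replicate block, 3 with the probe index as a covariate (added after the data had been seen) and 1 to 8 with 1 array left out, lowest without Vglut2:Ndufs4cCT replicates 3 or 4 and highest without Vglut2:Ndufs4cKO replicate 4. The number of receptor pairs that passed was 0, against 9 with quantile normalization, 10 with an offset of 1, 9 with an offset of 50 and 0 to 9 with 1 array left out (9 without Vglut2:Ndufs4cKO replicate 3). Array weights called 213 probes higher and 27 lower, and with 1 array left out 30 to 234 were higher and 0 to 123 lower, the most without Vglut2:Ndufs4cKO replicate 4. With an offset of 50 the lower probes were 3, and with the index 2. The value of Fcgrt turned negative with quantile normalization (-0.0033), without Vglut2:Ndufs4cCT replicate 4 (-0.087) and without Vglut2:Ndufs4cKO replicate 4 (-0.0057), and was highest, at 0.13, without Vglut2:Ndufs4cCT replicate 3. It passed the threshold under none of these 19 alternatives. Of 133 values of single receptor probes under these alternatives, 127 kept direction and side of the threshold. The mean of the tested Fcgr2b probes gave 2.33 (adjusted p = 0.00407 from limma). The causes were not tested. The fold changes of Fcgr4 and ILMN_3102376 are limited by controls that were mostly not above background.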
